A study of Drosophila melanogaster with 2 samples.

Results

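The 776 peaks described here are the intronic members of a set of 2892 regions bound by tagged ERR in Drosophila melanogaster embryos, 26.8% of that set (95% Wilson interval 25.2 to 28.5). A peak was counted as intronic when its summit lay more than 500 bp from every annotated transcript start, inside the span of a gene and outside all annotated exons. The other summits lay within 500 bp of a start (1794 promoter peaks), between genes (257 intergenic peaks) or in exons away from starts (65 exonic peaks). The flies were a transgenic line that stably expressed ERR with green fluorescent protein (GFP) fused to its C-terminus, and chromatin was precipitated with an antibody to GFP. There were 2 biological replicates, numbered 2 and 3, and they form 1 group: embryos of both sexes pooled, collected 0 to 24 h after laying, so that all stages and cell types of the embryo are mixed and the cells behind a peak cannot be told apart. No group without the tag was analysed here, and whether a region would also appear in untagged chromatin was not tested.

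ERR is the single fly member of the oestrogen-related receptors, a family of orphan nuclear receptors. In the embryo it is known for switching on genes of sugar breakdown in mid-embryogenesis, and it binds DNA through an extended nuclear receptor site, the core AAGGTCA, often extended to TNAAGGTCA or TCAAGGTCA. Introns near the start of a gene are a usual place for enhancers in flies, which act on the promoter of the same gene or of a neighbour.

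The sequences that carry an exact match to the receptor's site are shown first, because they are few and can be read directly. The site searched was TNAAGGTCA on either strand, within 100 bp of each summit, and 21 intronic peaks held it. Printed here are 9 of the 10 with the highest signal, and peaks in the ecdysone genes Eip75B and Eip74EF follow. Each line is 61 bp of the plus strand of dm6 (RefSeq, release 6), centred on the site, with the site in capitals, and a site on the minus strand appears as its reverse complement.
CG9674, chr3L:16806512-16806572: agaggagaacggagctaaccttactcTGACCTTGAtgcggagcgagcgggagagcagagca
Men, chr3R:12718841-12718901: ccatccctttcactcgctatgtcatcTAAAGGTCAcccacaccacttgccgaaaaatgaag
CG11357, chr3L:4543238-4543298: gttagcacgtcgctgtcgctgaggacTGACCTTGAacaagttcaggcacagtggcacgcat
glec, chr3R:21853710-21853770: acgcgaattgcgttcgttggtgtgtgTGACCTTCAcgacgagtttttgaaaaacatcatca
Hr4, chrX:1948873-1948933: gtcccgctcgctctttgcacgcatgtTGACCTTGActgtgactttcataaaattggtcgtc
Glyp, chr2L:2132438-2132498: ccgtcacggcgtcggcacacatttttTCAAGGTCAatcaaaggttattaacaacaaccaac
Gs2, chrX:11427509-11427569: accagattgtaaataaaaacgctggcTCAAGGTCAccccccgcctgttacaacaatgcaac
Pdcd4, chrX:13752815-13752875: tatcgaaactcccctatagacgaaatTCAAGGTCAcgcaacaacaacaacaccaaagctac
Leash, chr3R:10888542-10888602: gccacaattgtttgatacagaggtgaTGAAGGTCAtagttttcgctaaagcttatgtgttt
Eip75B, chr3L:17958394-17958454: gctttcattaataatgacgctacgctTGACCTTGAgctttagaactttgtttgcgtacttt
Eip74EF, chr3L:17595960-17596020: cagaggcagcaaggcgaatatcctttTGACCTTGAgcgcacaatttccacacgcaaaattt
Of the 18 carriers whose sequence was extracted, 13 had the full form TCAAGGTCA, and in 16 the site lay within 50 bp of the summit.

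The 20 highest intronic peaks had no such site, which 2.71% of all intronic peaks held. The windows of the highest member, in ush, and of the third, in Lk6, are printed for contrast, each the plus strand to 100 bp on either side of the summit. The capitals mark a stretch with the fewest differences from TCAAGGTCA on either strand, 2 positions in ush and 3 in Lk6. In Lk6 it is not the only stretch that close.
ush, chr2L:481003-481203: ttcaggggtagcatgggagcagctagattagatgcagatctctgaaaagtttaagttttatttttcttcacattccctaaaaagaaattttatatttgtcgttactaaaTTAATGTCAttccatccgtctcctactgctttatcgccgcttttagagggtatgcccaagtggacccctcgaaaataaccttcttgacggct
Lk6, chr3R:11760943-11761143: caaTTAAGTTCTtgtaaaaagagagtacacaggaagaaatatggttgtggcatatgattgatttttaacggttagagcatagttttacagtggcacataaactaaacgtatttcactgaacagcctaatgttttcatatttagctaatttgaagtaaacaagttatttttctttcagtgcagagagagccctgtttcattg

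Intronic peaks were about as strong as the other peaks of the set. Signal is the peak caller's own value for each region, deposited without scaling between lists, and in the pooled list it ran from 69.2 to 1667 over the intronic peaks, with quartiles of 80.7 and 134 and a median of 97.6. The median was 98.7 at promoters and 94.6 between genes. Of the 776 intronic peaks, 386 (49.7%) lay above the median of the whole set, 97.8, against 50.9% of promoter peaks (odds ratio 0.955, p = 0.606) and 47.1% of intergenic peaks (odds ratio 1.11, p = 0.472; exact Fisher test, two-sided). Neither difference passed the threshold of 0.05. At the top of the range 19 intronic peaks (2.45%) were among the 100 highest, against 4.01% of promoter peaks and 3.46% of all peaks. A signal over 200 was reached by 72 intronic peaks (9.28%), against 11.9% of promoter peaks and 10.8% of all peaks; these shares were not tested. These p-values and those below are computed over peaks, which are not replicates of the embryo, so they describe this set of regions only.

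The distance of 500 bp did not cut through a gap in signal. The 3 peaks nearest the limit on the inner side, in Sclp, DCP2 and lola, lay 503, 505 and 505 bp from a start and had signals of 104, 72.8 and 158. Just outside it, intronic summits near kuk, Ldh and Pen lay 499, 497 and 496 bp from a start and had signals of 122, 334 and 78.2. Over the 43 members up to 600 bp from a start the median signal was 102.5, and over the 50 intronic summits left out at more than 400 and up to 500 bp it was 116.

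Most members were found in each replicate; their recovery was above that of promoter peaks in replicate 3 and below it in replicate 2. A member counted as recovered when it overlapped, by at least 1 bp, one of the 2892 highest regions of a replicate's own list. The optimal set was itself chosen by reproducibility between the replicates, so the level of recovery is in part given by that choice. Of the 776 members 561 (72.3%, 69.0 to 75.3) were recovered in both replicates, where all optimal peaks stood at 70%. A further 83 were recovered in replicate 2 alone, 112 in replicate 3 alone and 20 in neither. Recovery in both did not differ past the threshold from promoter peaks (69.6%, odds ratio 1.14, p = 0.187) or intergenic peaks (66.5%, odds ratio 1.31, p = 0.0818; exact Fisher test, two-sided). Taken singly the libraries went opposite ways: in replicate 2, 83.0% of members and 88.5% of promoter peaks were recovered (odds ratio 0.633, p = 0.000217, exact Fisher test), and in replicate 3, 86.7% and 79.2% (odds ratio 1.72, p = 5.4e-06, exact Fisher test). Against intergenic peaks the odds ratio was 1.86 in replicate 3, which passed (p = 0.000976, exact Fisher test), and 0.719 in replicate 2, which did not (p = 0.117, exact Fisher test). Other choices also changed the call: with reciprocal overlap of 50% recovery in both replicates passed against promoter peaks (1.20, p = 0.0417) and intergenic peaks (1.35, p = 0.0414, exact Fisher test). Against promoter peaks it also passed with starts at 200 bp (1.35, p = 0.00118) and among the stronger 50% of peaks (2.91, p = 0.0451, exact Fisher test).

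The signal ratio between the libraries showed the same difference. Over the 734 members with a summit within 100 bp in both replicates, the replicate 2 signal was a median of 1.27 times the replicate 3 signal (quartiles 1.02 and 1.53), against 1.36 at promoters and 1.30 between genes. The share of members with a ratio above the median of all paired peaks, 1.33, was 45.4%, against 52.2% of promoter peaks (odds ratio 0.759, p = 0.00198, exact Fisher test, two-sided). Within the higher-signal 50% of peaks the odds ratio was 0.843 and did not pass. Against intergenic peaks, a test added after seeing the data, it was 0.947 (p = 0.767, exact Fisher test). Spearman's rho of signal between the libraries was 0.617 over the 734 paired members, 0.615 over 1694 promoter pairs and 0.549 over 244 intergenic pairs; this is a description across peaks that share their libraries. In the list of each replicate alone intronic summits made up 25.3% of the 2892 highest regions in replicate 2 and 29.2% in replicate 3.

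**Figure D1:**
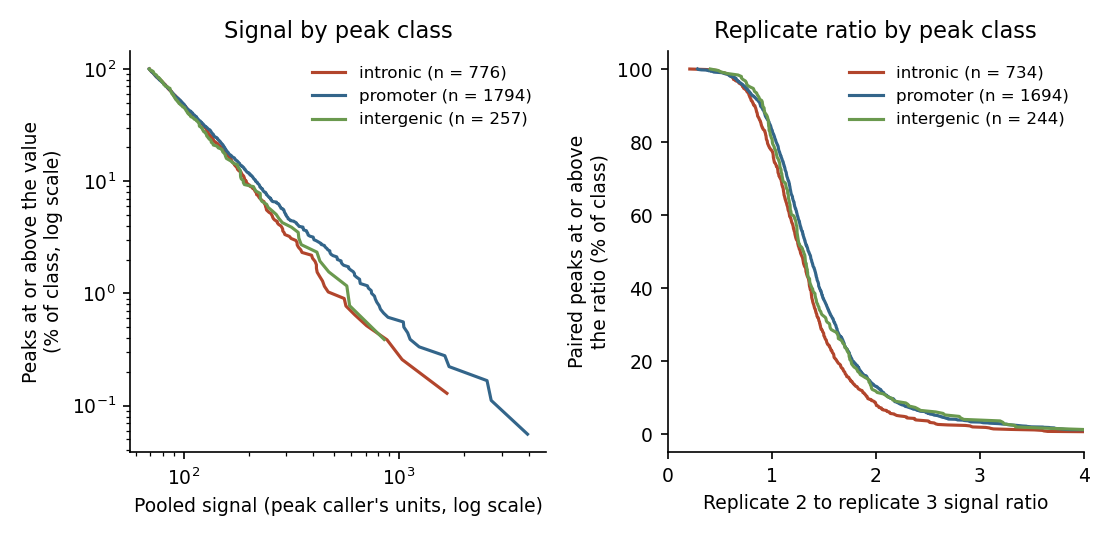
Left, the share of peaks of each class (vertical, percent, log scale) at or above a pooled signal (horizontal, peak caller's units, log scale); right, the share of paired peaks at or above a replicate 2 to replicate 3 signal ratio. The classes lie together up to a signal of about 100, promoter peaks reach higher, and the intronic ratios lie lowest over most of the range, with a median of 1.27 against 1.36 at promoters.

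The strongest intronic peak lay in the large first intron of ush, which encodes a zinc-finger partner of GATA factors. It spanned chr2L:480830-481413 and had a signal of 1667 in the pooled list, 974 in replicate 2 and 707 in replicate 3, ranking 5, 4 and 6. The nearest start was not that of ush but that of cbt, 1415 bp away, the gene of a zinc-finger factor known to respond to sugar. The next member, in CG11050 at chr2L:6612505-6612906, had signals of 1032, 590 and 443 in the same order and lay in an intron of 140 bp, so that its region also covered exon bases. Lk6, the gene of a kinase that acts on the translation factor eIF4E, had a member at chr3R:11760853-11761243 with signals of 879, 454 and 424. In all 3 the replicate 2 value was above the replicate 3 value.

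CG9663 (chr2L:3301990-3302352) followed with a pooled signal of 707, CG32772 with 623 and CG3726 with 566. The replicate values were 407 and 300.2 for CG9663, 360 and 263 for CG32772, and 315 and 261 for CG3726, replicate 2 first. Tlk, the gene of the Tousled-like kinase, which acts in chromatin assembly, had 556 in the pooled list, 293 in replicate 2 and 262 in replicate 3. The transcription factor gene Adf1 had 469, CG9837 had 450.0 and CG32486 had 441. Raf, which encodes the kinase between Ras and the MAP kinase cascade, had 428, and Trl, which encodes the GAGA factor, had 417.

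The remaining members of the highest 20 had pooled signals from 341 to 413. They lay in HmgD and HmgZ, overlapping genes of HMG-box chromatin proteins (413), in CG31635 (413), and in Zw (407), which encodes glucose-6-phosphate dehydrogenase, the entry enzyme of the pentose phosphate pathway. Zw was the least even of the 20, with 262 in replicate 2 and 140 in replicate 3, ranks 62 and 122. CG44245 and Gyg, the latter encoding glycogenin, the primer of glycogen synthesis, shared a member of 396. NFAT had 392, norpA, the gene of the phospholipase C of phototransduction, 354, and for, which encodes a cGMP-dependent kinase, 349. The last of the 20, in Hyls1 and chif, had 341.

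All 20 were recovered in both replicates, and the lowest rank any of them took in either replicate was 122. They were picked by signal in the list pooled from the same replicates, so this is in part given by the choice. A first intron held 17 of the 20, 17 lay within 2 kb of a start, and for 16 the nearest start was that of a host. Over all members 74.6% lay in a first intron. Their median distance to a start was 2117 bp, with 24.5% at 500 to 1000 bp and 24.1% at 1000 to 2000 bp. For 22.9% of all members the nearest start belonged to no host. For 10 of the 20 a host had a peak at its own start, beside 43.7% of all protein-coding hosts, counted by gene. None of the 20 held the ERR site, its core AAGGTCA, or a stretch within 1 mismatch of TCAAGGTCA. A count of 0 of 20 allows a share of up to 16.1% (upper Wilson bound). Over all members the shares were 2.71%, 5.15% and 9.02%, all below that bound, so the count does not set the 20 apart.

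**Figure D2:**
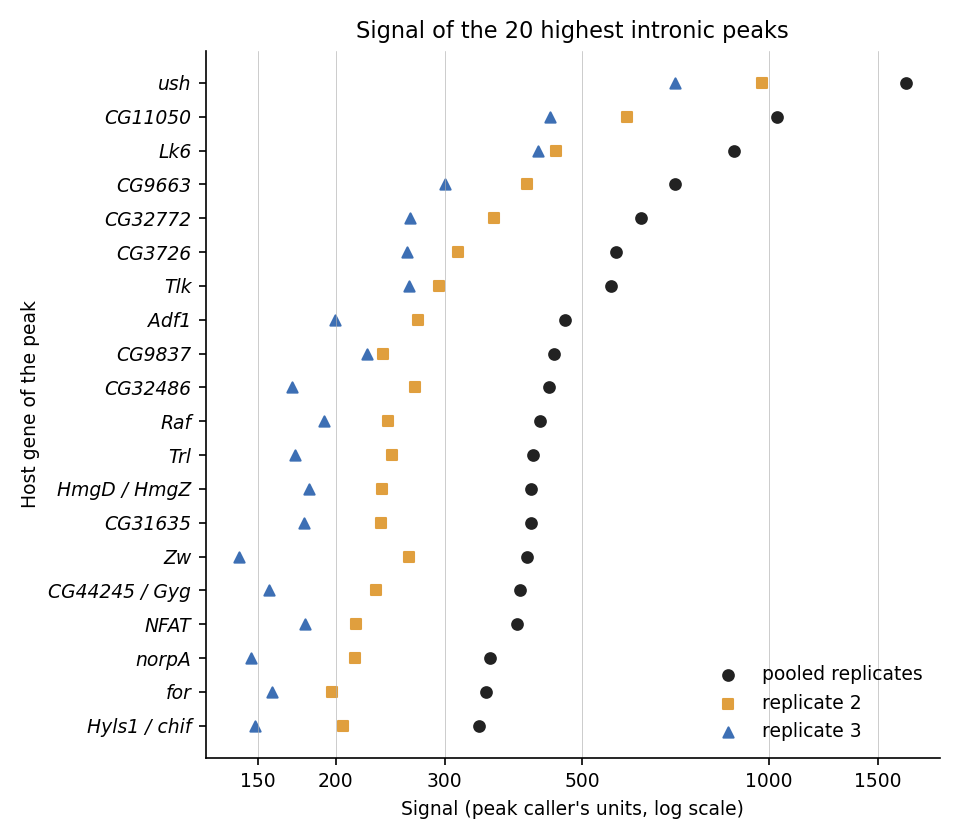
Signal (horizontal, peak caller's units, log scale) of the 20 highest intronic peaks, each named by its host gene or genes, in the pooled list and in the list of each replicate, which are not scaled to each other. Every one of the 20 is higher in replicate 2 than in replicate 3, and the ush peak leads in all 3 lists.

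The ERR site was rare but more frequent at intronic summits than in intron sequence at large. TNAAGGTCA lay in 21 of 776 intronic windows (2.71%, 1.78 to 4.10), where all optimal peaks stood at 1.63%. It lay in 0.520% of all windows of the same length tiled over the intron sequence that meets the rule, in 0.515% of windows 1 kb from the intronic summits, and in 0.377% of windows centred on transcript starts. The core AAGGTCA lay in 40 intronic windows (5.15%), against 1.91% of tiled intron windows and 2.00% of those 1 kb away. The full form TCAAGGTCA lay in 15 (1.93%), against 0.125% and 0.258%. Sites were concentrated at the summits: 18 sites of TNAAGGTCA lay within 50 bp of a summit, a density of 17.8 per 100 bp over all members, against 3.0 per 100 bp at 500 to 1000 bp.

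**Figure D3:**
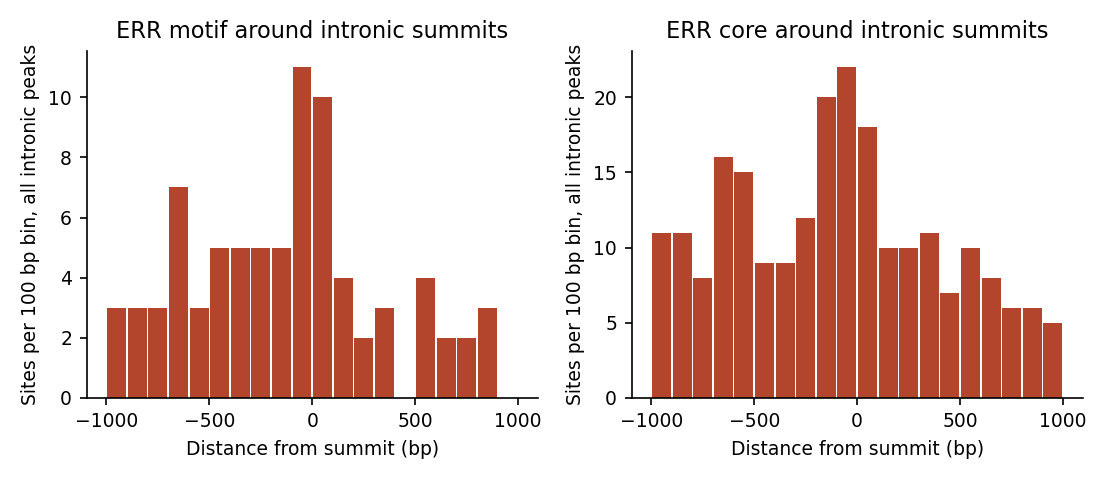
Number of ERR motif sites (left) and ERR core sites (right) per bin of 100 bp, by distance from the summit in bp, summed over the 776 intronic peaks. The bins on either side of the summit hold 11 and 10 motif sites and no other bin holds more than 7; for the core they hold 22 and 18, and the next bin on one side holds 20.

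The comparison of the site with promoter peaks stood close to the threshold, and its call changed with several choices. For TNAAGGTCA the share at promoter summits was 1.11% (20 of 1794), an odds ratio of 2.47 whose adjusted p of 0.0512 did not pass (exact Fisher test, two-sided, Benjamini-Hochberg over 48 comparisons of 24 motifs with promoter and with intergenic peaks). In replicate 2 alone the odds ratio was 3.26 and in replicate 3 alone 2.81, and both passed, as did windows reaching 50 bp (3.02, adjusted p = 0.0258) or 250 bp to either side (2.16, adjusted p = 0.0117) and starts at 200 bp (2.78, adjusted p = 0.0173; exact Fisher test). With starts at 1000 bp (2.35, adjusted p = 0.0752) or among the stronger 50% of peaks (2.78, adjusted p = 0.0709; exact Fisher test) it did not pass. The full form was found at 5 promoter summits (0.279%), an odds ratio of 7.05 that passed (adjusted p = 0.000523, same test), and for the core the odds ratio was 1.69 (adjusted p = 0.101, exact Fisher test). Against intergenic peaks no form passed: TNAAGGTCA lay in 2.33% of those (odds ratio 1.16, adjusted p = 1, exact Fisher test). The comparisons share the intronic peaks and the forms share sites, so they are not independent of each other.

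Within the intronic peaks the site was more frequent above their median signal than below it, but the difference did not pass in either replicate alone. It lay in 16 of 388 stronger members (4.12%) and 5 of 388 weaker ones (1.29%), an odds ratio of 3.30 (p = 0.0246, exact Fisher test, two-sided). In the regions of replicate 3 alone the ratio was 1.73 and in those of replicate 2 alone 1.19, and neither passed. Among the stronger 50% of all optimal peaks it was 0.769.

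The 21 carriers had signals from 73.4 to 336, with a median of 116, and 18 were recovered in both replicates, beside 72.3% of all members. CG9674 led with 336 in the pooled list, 177 in replicate 2 and 160 in replicate 3. Men, which encodes malic enzyme, followed with 242, 137 and 112.5, then CG11357 with 217, 116 and 100.6, and glec, the gene of a carbohydrate-binding protein, with 180, 105 and 85.6. Hr4, itself a nuclear receptor gene of the ecdysone cascade, had 179, 111 and 65.3.

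The other carriers had signals from 73.4 to 163. Glyp, which encodes glycogen phosphorylase, had an intronic signal of 163 (100.5 in replicate 2 and 61.9 in replicate 3), 1633 bp from its start, beside a promoter peak of 1706. Gs2, the gene of a glutamine synthetase, had 153, Pdcd4 134, Inos, the gene of inositol-3-phosphate synthase, 126, and the member shared by Leash and the adenylate kinase gene Ak3 had 121. Lower carriers lay in Eip75B, in SNF4Agamma, which encodes a subunit of AMP-activated kinase, and in aralar1, the gene of a mitochondrial aspartate and glutamate carrier, with signals of 102, 101.1 and 96.6. Eip74EF held 2, of 109 and 107. CG45085 and CG8026 shared one of 116, and CG2841 (98.5), rgr (96.2), tna (82.7), the cAMP phosphodiesterase gene dnc (82.3) and the cell polarity gene scrib (73.4) held the rest. The carriers below the 10 highest are named after their values were seen. A first intron held 15 of the 21, beside 74.6% of all members. A host with a peak at its own start was found for 10, beside 43.7% of all protein-coding hosts, counted by gene.

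Motifs of promoter factors were nearly absent from the intronic summits, as they were from intron sequence at large. The peak classes were set by distance to starts, where these motifs are more frequent. The comparison with promoter peaks therefore in part restates the rule. TATCGATA, the motif of DREF, was held by 0.258% of intronic windows and 8.70% of promoter windows (odds ratio 0.0271, adjusted p = 5.67e-21), and GGTCACACT, that of M1BP, by 0.129% and 4.46% (odds ratio 0.0277, adjusted p = 1.48e-10, exact Fisher test as above). Windows centred on all transcript starts, with or without a peak, held them at 5.45% and 3.71%, and tiled introns at 0.447% and 0.0955%. The E-box CAGCTG was also less frequent than at promoter summits, 8.76% against 14.5% (odds ratio 0.564, adjusted p = 0.000523, exact Fisher test); all starts stood at 12.3% and tiled introns at 7.11%. These were the only 3 of the 21 other motifs that passed against promoter peaks, and 6 had an unadjusted p under 0.05. Against intergenic peaks 0 of 21 passed, and 3 had an unadjusted p under 0.05.

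Among the motifs that did not pass, the most frequent at intronic summits were the hypoxia response motif ACGTG (16.6%), the homeodomain motif TAATTA (13.02%), the GATA motif GATAAG (11.2%) and the Twist E-box CACATG (9.79%). These shares were near those of intron sequence without regard to peaks, except for GATA. Its share (interval 9.18 to 13.6) stood above that of tiled introns and level with that of windows 1 kb away. Tiled introns held the motifs at 14.85%, 14.54%, 8.47% and 9.37%, in the same order. Windows 1 kb away held them at 15.21%, 13.92%, 11.21% and 10.57%. The forkhead motif TGTTTAC, which had the lowest adjusted p of those that did not pass against intergenic peaks, lay in 9.02% of intronic windows, 6.13% of promoter windows (adjusted p = 0.0776, exact Fisher test) and 3.89% of intergenic windows (adjusted p = 0.054, exact Fisher test), with 5.61% in windows 1 kb away and 4.34% in tiled introns. The GAF motif GAGAGAG, named like the forkhead motif after its values were seen, lay in 8.25% (6.51 to 10.4), against 7.36% at promoter summits, 4.67% at intergenic summits, 6.25% 1 kb away and 2.78% in tiled introns. Median GC content was 38.6% in the intronic windows, 41.3% at promoter summits and 40.3% in tiled introns, and its part in these shares was not tested.

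**Figure D4:**
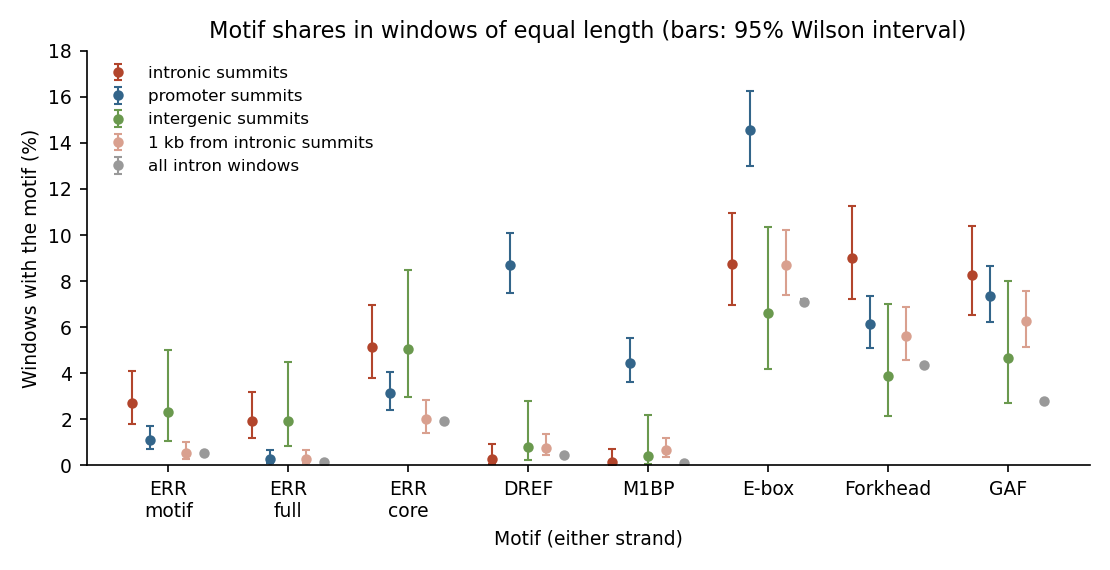
Share of windows reaching 100 bp to either side that hold each motif on either strand (vertical, percent), for summits of 3 peak classes, windows 1 kb from intronic summits and all windows tiled over the intron sequence that meets the rule; bars are 95% Wilson intervals. Intronic summits stand above tiled introns for the 3 forms of the ERR site and near 0 for DREF and M1BP, where promoter summits stand at 8.70% and 4.46%.

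Intronic peaks lay near gene starts for introns, mostly in first introns. The median distance to the nearest start was 2117 bp, with quartiles of 1010 and 4882 bp and a highest value of 49850 bp. Per Mb of intron sequence that meets the rule there were 43.1 members at 500 to 1000 bp from a start (exact Poisson interval 37.2 to 49.7, counting error only), 26.6 at 1 to 2 kb, 16.1 at 2 to 5 kb, 11.3 at 5 to 10 kb and 3.66 beyond 10 kb (2.81 to 4.68), where the overall density was 14.7. The median signal was 105 in the nearest class and 92.5 in the farthest. A first intron of some transcript held 579 members (74.6%, 71.4 to 77.5), and 43.4% of the eligible bases lay in first introns. First introns also lie nearest to starts, and the part of each in these values was not tested.

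By arm the density ran from 12.5 members per Mb on 3R to 17.9 on X (15.4 to 20.7) among the large arms, and chromosome 4 held 1 member, in Asator, or 1.74 per Mb (0.0440 to 9.69). For 178 members (22.9%) the nearest start belonged to no host gene, as with cbt above. A peak within 500 bp of a start lay within 2 kb of 122 members (15.7%). The regions had a median width of 404 bp, and 47 (6.06%) also covered exon bases.

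Host genes more often had a peak at their own start than other genes did. Members lay in 558 of 9101 protein-coding genes with eligible intron sequence, or 6.13%. Of these hosts 244 (43.7%, 39.7 to 47.9) had an optimal peak within 500 bp of one of their own starts, against 16.3% (15.6 to 17.1) of the other 8543 genes. Hosts have longer introns, with a median of 10.8 kb eligible against 0.395 kb, but the difference was present in each class of intron length: 29.2% against 16.3% up to 2 kb, 46.8% against 17.1% at 2 to 5 kb, 41.4% against 16.9% at 5 to 10 kb, 48.2% against 16.1% at 10 to 20 kb and 46.4% against 15.2% above. Among the 445 hosts with every member over 2 kb from a promoter peak the share was 31.7% (27.5 to 36.2). In the higher-signal 50% of peaks the share of hosts with such a peak was 27.5%, and the share among other genes was not recomputed there. These are descriptions over genes and were not tested.

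**Figure D5:**
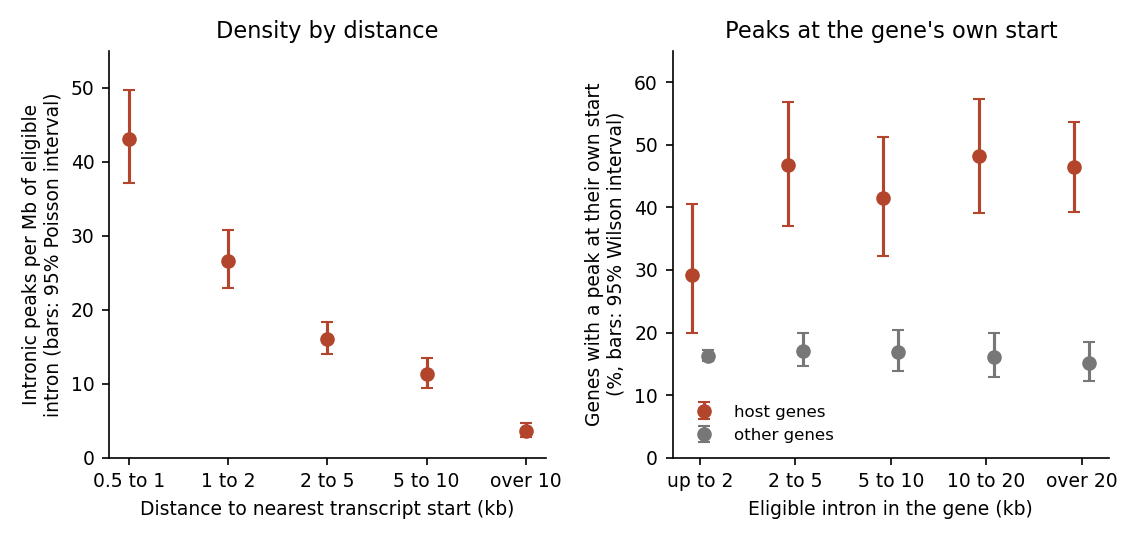
Left, intronic peaks per Mb of eligible intron by distance to the nearest transcript start (kb), with 95% Poisson intervals; right, the share of host genes and of other genes with a peak at their own start, by kb of eligible intron in the gene, with 95% Wilson intervals. Density falls from 43.1 to 3.66 per Mb, and the hosts lie above the other genes in all 5 classes.

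Most hosts had a single member, and a few had many. Of the 558 hosts 401 had 1 member, 157 had 2 or more and 48 had 3 or more. Raf held the most, with 9 over 34.1 kb of eligible intron, from 74.96 to 428 in signal. Of these, 6 formed the largest run of summits within 2 kb of each other, spanning 7618 bp at chrX:2296477-2304095. Raf had no peak at its own start.

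The other hosts with the most members had 7 each. In ush they ranged from 77.7 to 1667 and 6 of 7 were recovered in both replicates. In Tlk they ranged from 74.8 to 556, and 5 of them lay within 3723 bp. In Eip75B, which encodes an ecdysone-induced nuclear receptor, they ranged from 71.7 to 222, spread over an eligible 92.1 kb. In simj, the gene of a subunit of the NuRD chromatin remodelling complex, they ranged from 73.3 to 133 and 4 of 7 were recovered in both replicates. Neighbouring members can share a stretch of sequence, and 3 members have an interval that is listed more than once, so members of a gene are not independent regions.

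Genes of the ecdysone response hosted members often. Of 14 such genes with eligible introns 10 were hosts, beside 6.13% of all genes. That share takes in many genes with little intron sequence. Of genes with over 20 kb eligible, 181 were hosts and 521 were not. The 14 genes held 27 members in 652 kb, or 41.4 per Mb (27.3 to 60.2) against 14.7 over all introns. The median signal of these members was 108.5, against 97.6 over all members. The highest were in Hr39 (332), Eip75B (222), Hr4 (221) and Hr3 (165), all nuclear receptor genes. Nuclear receptors as a list share most of these genes and had 6 hosts of 18 and 48.3 members per Mb (29.5 to 74.6). EcR, the gene of the ecdysone receptor, had 1 member of 153 and no peak at its start. Over all introns density fell from 43.1 per Mb at 500 to 1000 bp from a start to 3.66 beyond 10 kb. Neither this list nor those below were matched for that distance, and its part in their densities was not tested. The intervals of all these lists count each member as a separate event. Members of a gene are not independent regions, so the intervals may be too narrow. The same 6.13% of all genes stands beside the host counts below, with the same limit.

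Lists of metabolism held few members in little intron sequence, so their densities have wide intervals. Among genes listed for lipid synthesis and storage 6 of 13 were hosts, with 9 members in 52.2 kb, or 172 per Mb (78.8 to 327). The list also takes in whd, a gene of fatty acid oxidation. Its hosts were led by Lsd-2, which encodes a perilipin of lipid droplets (212), the lipase gene bmm with 3 members (highest 157), the acyl-CoA synthetase gene Acsl (87.0) and the carnitine palmitoyltransferase gene whd (75.6). The median signal over the 9 was 75.6, below the 97.6 of all members. Glycolysis had 2 hosts of 9, the pyruvate kinase gene PyK with a member of 240 beside a promoter peak of 241, and the phosphoglucose isomerase gene Pgi with 172 beside 636. These 2 members in 8.04 kb gave 249 per Mb (30.1 to 899), the highest density of the 17 lists and the widest interval. Trehalose and glycogen genes had 1 host of 9, Glyp, or 45.2 per Mb (1.14 to 252), an interval that includes the overall density of 14.7.

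Regulators of sugar, stress and growth signalling followed. Of 14 transcription factors of sugar sensing and stress 7 were hosts (60.7 members per Mb, 31.4 to 106), led by REPTOR (190), sima (167), CrebB (117) and crp (5 members, highest 108), and each of these 4 also had a peak at its own start. Insulin, TOR and hypoxia signalling had 4 hosts of 13 at 41.1 per Mb (15.1 to 89.5), namely Lk6 (879), the insulin receptor gene InR (196), sima and foxo (75.3). The cell cycle list had 1 host of 17, Myc, with 3 members of at most 82.4 (39.1 per Mb, 8.07 to 114, which includes the overall 14.7). Of these 3 members 0 were recovered in both replicates, beside 72.3% of all members.

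Chromatin and signalling lists had densities above the overall value. Among these 3 lists only the interval for Notch, Egfr and Fgf included it, with members counted as if independent. Polycomb, trithorax and insulator genes had 8 hosts of 22 and 77.7 members per Mb (40.1 to 136), led by Trl (417), trx (192), lola (158) and Psc (130.4). Notch, Egfr and Fgf signalling had 10 hosts of 25 at 25.8 per Mb (13.7 to 44.0), led by the Egfr antagonist gene aos (190), N (173), mam (158) and the Fgf gene ths (152). Wnt, Hedgehog and TGF-beta signalling had 9 hosts of 27 at 36.1 per Mb (21.4 to 57.0), led by the Wnt receptor gene fz (256), Mad (185), Dad (169) and shn (154).

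Neural, muscle and patterning genes, which have long introns, had densities below the overall value. Neural genes had 6 hosts of 24 and 11.1 members per Mb (4.80 to 21.9), led by brat (227), elav (144), para (116) and ct (104). Muscle genes had 4 hosts of 25 and 13.7 per Mb (6.55 to 25.1), namely kirre (170), Mef2 (163), how (105) and mbc (79.3). Segmentation and Hox genes had 2 hosts of 27, hth and Antp, and 5.71 members per Mb (1.18 to 16.7). Cytoskeleton, adhesion and matrix genes had 2 of 23, Fas3 and if, at 10.1 per Mb, and trachea and epidermis genes 1 of 10, grh (74.1), at 5.19 per Mb. The intervals of these 5 lists all include the overall density of 14.7. Endoderm and GATA genes had 1 host of 9, ush, whose 7 members gave 51.8 per Mb (20.8 to 107). No list was tested or matched for distance to starts.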

How the data were processed

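ChIP-seq of ERR-GFP embryos gave region lists in the narrowPeak layout for dm6 and dm3; the dm6 lists were used, and the dm3 lists were not. Per the notes deposited with the files, each list of 30000 regions comes from 1 replicate or from both pooled, and the optimal set was chosen by the irreproducible discovery rate. Signal is as the authors deposited it, in the peak caller's units. The −log10 q-value column, as deposited, is 3.89 in every optimal peak, so peaks were ranked by signal. Which aligner and peak caller made the lists is not given in the sources used here. Depth is unknown, because the lists hold no read counts; intervals cover counting error over peaks or genes only. The 2892 rows of the optimal set hold 2884 different intervals, all among the highest pooled regions.

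Summits were placed on Ensembl release 115 gene models, and sequence was read from the RefSeq copy of genome release 6, and all regions end within its 6 arms. Scripts used Python 3.11.15, NumPy 2.4.6, pandas 2.3.3 and SciPy 1.17.1 and were tested on simulated data. Motifs were searched within 100 bp of summits on both strands. Comparisons used Fisher's exact test over peaks, with a threshold of 0.05 and Benjamini-Hochberg adjustment over motifs. Coordinates are 1-based. Named genes are hosts of the 20 highest members, of the 10 highest carriers of TNAAGGTCA, the 5 hosts with the most members, and up to 4 hosts of highest signal in each of 17 gene lists. Symbols with no unique model (GPAT4, Tor, fga, h, Dl, dys, svb) were left out. Members, lists and motifs were chosen with earlier results of these data known. Alternatives were other start distances, motif windows, motif forms, overlap rules, a stricter set, protein-coding models and each replicate alone. Density by distance, the promoter peaks of hosts, runs of members, 7-letter words and 1-mismatch sites were added after seeing the data.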

Additional observations from a re-analysis of the deposited data

How the results depend on the processing

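Of 88 alternative values, 48 were counted as unchanged, 20 gained significance or rose in count, 6 lost significance, 6 moved and 8 reversed. A test counted as unchanged when its direction and call held. A share counted as unchanged inside the Wilson interval of the reported value, which covers counting error over peaks or genes only. For other motifs passing against promoters, a count of 4 beside the reported 3 was also taken as unchanged. The causes of the changes were not tested. No paired analysis was possible because there is only 1 group. The intronic share was 33.7% with starts at 200 bp, 20.3% at 1000 bp and 25.3 to 29.2% without each replicate. With starts at 200 bp, odds ratios against promoters were 1.16 for signal above the median, 1.35 for recovery and 2.78 for the ERR site (both past the threshold), and 5 other motifs passed against promoters and 1 against intergenic peaks. At 1000 bp the signal ratio against intergenic peaks was 0.941. In the higher-signal 50% of peaks, recovery against promoters was 2.91 (past the threshold), the replicate ratio 0.843 and the ERR site in strong against weak members 0.769. Reciprocal overlap of 50% gave recovery ratios of 1.20 against promoters and 1.35 against intergenic peaks, both past the threshold. Windows reaching 50 bp to either side gave 3.02 for the ERR site against promoters (past the threshold) and 1 other motif against intergenic peaks; windows reaching 250 bp gave 2.16 (past the threshold), 6 other motifs against promoters, 2 against intergenic peaks, an ERR ratio of 0.962 against intergenic peaks and 1.96 in strong against weak members. The full form gave 7.05 against promoters and 0.993 against intergenic peaks, the core 1.71 in strong against weak members, and the full form with up to 1 mismatch, added after seeing the data, 1.83 against promoters and 1.46 in strong against weak members. Without each replicate, ranges were 0.633 to 1.72 (recovery against promoters), 0.719 to 1.86 (recovery against intergenic peaks), 0.861 to 1.18 (signal against intergenic peaks), 2.81 to 3.26 (ERR site against promoters), 1.19 to 1.73 (strong against weak members) and 1 to 1 (other motifs against intergenic peaks). The replicate ratio needs both libraries and has no such value. Depth is unknown, so no limit from read counts is given.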

Other observations

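A 7-letter word that is not part of the receptor's site was common at the intronic summits. Whether it is linked to that site was not tested. Every 7-letter word within 100 bp of intronic summits (8177 words, both strands) was ranked by its share at intronic summits minus its share 1 kb away, after seeing the data, and ACAGTGG stood at the top; it was picked for this difference, so the values are a description with no test. It lay in 109 of 776 intronic windows (14.0%, 95% Wilson interval 11.8 to 16.7), in 3.42% of windows 1 kb away and in 2.39% of windows tiled over eligible introns. It lay in 9.73% of intergenic summits and 5.85% of promoter summits, where all transcript starts stood at 2.27%. In the intronic regions of each replicate alone the shares were 14.8% (replicate 2) and 12.5% (replicate 3). Sites were densest at 51 to 100 bp from the summit, 77.0 per 100 bp over all members, against 53.5 within 50 bp and 13.5 at 200 to 500 bp. The word can be read in the Lk6 window and beside the ERR site in the CG11357 window printed above. It lay in 7 of the 20 highest members, in 3 of the 40 members with the core AAGGTCA, and in 21.3% (16.0 to 27.8) of members on X against 8.67 to 14.7% on the other large arms. Several of the next words in the ranking overlap it, among them CACAGTG (10.6% of intronic windows, 3.03% 1 kb away), so they are not separate observations.

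Besides the runs in Raf, Tlk and ush, 10 more stretches held 3 members with neighbouring summits within 2 kb. The highest of these lay in Lrch, with signals from 70.4 to 336 over 1187 bp. Others lay in babos, Evi5, sbb, Irk1, bmm, shn, Kdm2, SNF4Agamma and simj, with highest signals between 88.5 and 175. Of the 679 runs in all, 601 were single members.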
